A study of Mus musculus with 17 samples.

Results

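The estrogen response element is the DNA sequence that estrogen receptors bind, and it was located here in the open chromatin of nucleus accumbens neurons. An element was taken as the half-sites AGGTCA and TGACCT facing each other across a 3-base spacer, with at most 1 mismatch in the 12 fixed bases. Peaks of 17 ATAC-seq libraries on chromosomes 1 to 19 were merged where they overlapped, which gave 277655 regions. Of these, 145224 were called in 2 or more libraries of one group, and 874 of them (0.602%) held at least 1 element. These 874 element regions contained 893 elements, of which 29, in 29 different regions, matched all 12 bases. The choice of the element regions used the sequence and the presence of a peak, and not the size of any difference between groups.

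ATAC-seq marks DNA that a transposase can reach. Mice were C57BL/6 by the sample labels and C57BL/6J by the study's methods, aged 52 to 54 days, and each library held NeuN+ (neuronal) nuclei sorted from the bilateral nucleus accumbens of 3 pooled animals. Cocaine groups had received 10 mg/kg intraperitoneally 1 h before sacrifice. Control mice were given no cocaine and served as the study's baseline, and no vehicle injection is described for them. Injection and the 1 h interval therefore cannot be told apart from cocaine. Each sex and stage had 3 control libraries, and 3 cocaine libraries stood against them in diestrus and proestrus and 2 in males. Proestrus is the high-estrogen, low-progesterone stage and diestrus the low-estrogen, high-progesterone stage, and stage was read from vaginal smears. The sort keeps all kinds of neurons together, so a change in the makeup of neurons and a change within a kind of neuron cannot be told apart.

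As background, estrogen receptor alpha and beta are nuclear receptors that bind estradiol and then attach to DNA as dimers, each partner reading one half-site of the palindrome. On DNA they recruit coactivators or corepressors, and bound sites usually lie in enhancers, far from gene starts. The half-site is shared with other nuclear receptors, so a match to the sequence does not show that an estrogen receptor was bound. In the nucleus accumbens, a reward region rich in GABAergic medium spiny neurons, estradiol is known to modulate dopamine signalling and responses to cocaine.

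The first sequences shown are exact elements, chosen because their peaks ran from all 17 libraries to a single group. Coordinates are mm10, bases are from the plus strand of the reference genome, capitals mark the 2 half-sites, and lower case marks the spacer and 10 bases on each side.
Zbtb37 (chr1:161039847-161039861): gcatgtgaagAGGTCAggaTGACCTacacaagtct
Tmem246 (chr4:49596982-49596996): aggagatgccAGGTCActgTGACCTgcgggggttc
Clvs2 (chr10:33558236-33558250): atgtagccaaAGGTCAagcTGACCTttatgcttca
Evl (chr12:108544702-108544716): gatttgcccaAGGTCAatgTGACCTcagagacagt
Nudcd3 (chr11:6119159-6119173): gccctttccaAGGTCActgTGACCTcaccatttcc
Lrrn1 (chr6:107243411-107243425): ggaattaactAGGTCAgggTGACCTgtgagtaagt
Col19a1 (chr1:24378635-24378649): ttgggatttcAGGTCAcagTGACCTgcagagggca
Syn3 (chr10:86355531-86355545): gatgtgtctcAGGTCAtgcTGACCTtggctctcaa
Slc7a11 (chr3:50752115-50752129): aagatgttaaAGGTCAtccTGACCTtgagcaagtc
Trpc6 (chr9:8443450-8443464): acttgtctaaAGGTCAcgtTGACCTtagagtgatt

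The next sequences are elements with 1 mismatch at genes of estrogen signalling and striatal neurons, or in regions that differed after cocaine or between stages. Each substitution gives the consensus base, its position counted from 1 at the 5′ end of the 15-base element, and the genome base. For the 5′ UTR element of Ebag9, the 15 bases alone are shown.
Pgr, C13A (chr9:8937848-8937862): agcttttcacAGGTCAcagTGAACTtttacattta
Nrip1, T15C (chr16:76373685-76373699): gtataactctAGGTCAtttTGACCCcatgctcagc
Ebag9, A1G (chr15:44619572-44619586): GGGTCAgggTGACCT
Cited2, C13G (chr10:17725759-17725773): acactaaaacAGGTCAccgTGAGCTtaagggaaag
Gad2, T10C (chr2:22621969-22621983): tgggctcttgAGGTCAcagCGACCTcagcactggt
Bcl11b, C14T (chr12:107969681-107969695): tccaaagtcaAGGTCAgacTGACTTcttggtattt
Grm4, C14A (chr17:27386137-27386151): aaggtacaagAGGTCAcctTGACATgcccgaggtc
Cacna1c, C5G (chr6:119073060-119073074): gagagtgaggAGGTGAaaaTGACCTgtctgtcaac
Hsf2, G11A (chr10:57001393-57001407): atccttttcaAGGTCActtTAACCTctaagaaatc
Shisa4, T4C (chr1:135382149-135382163): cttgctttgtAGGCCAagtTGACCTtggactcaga

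Over all elements, those in repeats included, mismatches were concentrated in the middle of the half-site. Counting both half-sites from their outer end (position 1) towards the spacer (position 6), position 3 carried 282 of the 864 mismatches (32.6%) and position 4 carried 234 (27.1%), against 79 (9.14%) at position 1 and 86 (9.95%) at position 2. The most frequent substitutions in the half-site were G3C with 127, T4C with 126 and G3A with 96. In the 893 elements the spacer GCC, on either strand, was the most frequent, with 154 (17.2%).

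The frequent spacer went with repeats. By the lower-case masking of the reference, 212 elements (23.7%) lay in repeats, and a GCC spacer occurred in 114 of them (53.8%) but in 40 of the 681 others (5.87%). Repeat elements were few in kind, with 69 distinct sequences among 212, and the 4 shown here recurred most often.
Repeat element, 38 copies: AGATCAggcTGACCT
Repeat element, 29 copies: AGCTCAggcTGACCT
Repeat element, 21 copies: AGGCCAgccTGACCT
Repeat element, 14 copies: AGGCCAggcTGACCT
The 681 elements outside repeats had 476 distinct sequences, and the most frequent of these occurred 6 times. Of the 29 exact elements, 2 lay in repeats.

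The 3-base spacer that estrogen receptors prefer was also the most frequent spacer of facing half-sites in these regions. At most 1 mismatch was allowed for every spacing, and spacers of 0, 1, 2, 4, 5 and 6 bases occurred in 420, 517, 640, 611, 554 and 535 regions, against 874 for 3 bases. Outside repeats the excess was smaller, with 670 regions for 3 bases and 596 for 2 bases as the next. The spacer of 3 bases was also the most frequent in the whole autosomal genome, with 10792 elements against 7255 to 8613 for spacers of 1, 2, 4 and 5 bases.

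**Figure D1:**
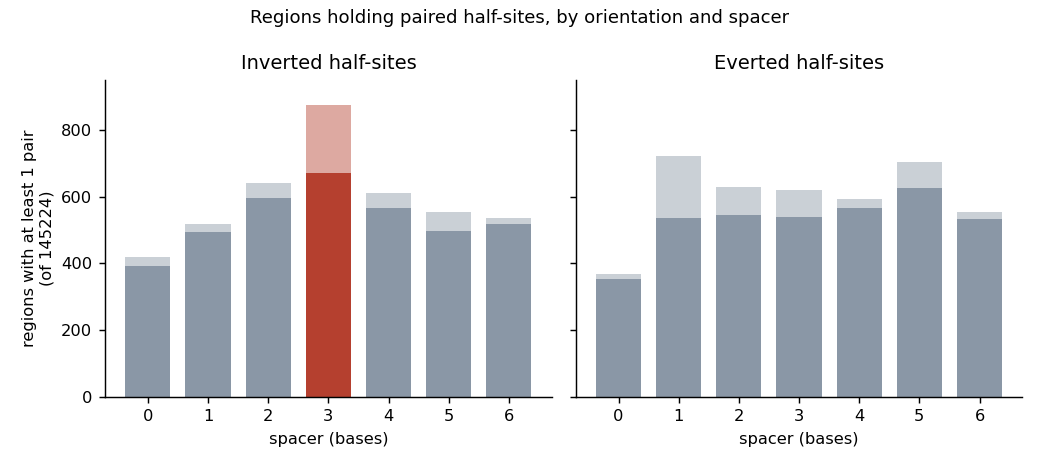
Number of the 145224 regions (vertical axis) that held a pair of half-sites with at most 1 mismatch, by the spacer in bases (horizontal axis), for half-sites facing inward (left) and outward (right). Dark bars give regions with a pair outside repeats and the pale tops those with repeat pairs alone. The 3-base spacer of the estrogen response element, in red, has the tallest bar of the left panel, 874 regions with 670 outside repeats.

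Open regions were close to the genome in their content of elements. They covered 7.51% of autosomal bases and held 8.27% of all elements and 7.46% of exact ones. This came to 4.96 elements per Mb of open region, 4.5 per Mb of genome, and 3.93 per Mb within 100 bp of the summits, the points of highest signal. The shares in open regions for the other 4 spacers counted in the genome ran from 7.31% to 8.54%.

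Element regions were wide, and a wide region has by construction more room for an element. Their median width was 2052 bp against 716 bp for all 145224 regions, and 36 were wider than 20 kb. The share of regions with an element rose from 0.171% at up to 500 bp to 5.23% above 5 kb, while elements per Mb went from 4.35 to 6.03. Element regions were called in all 17 libraries in 503 cases (57.6%), against 24.9% of all regions, yet the gap was small at equal width. Between 2 and 5 kb, 81.1% of element regions and 79.5% of all regions were called in 17 libraries, and between 1 and 2 kb the values were 38.9% and 43.5%.

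Most elements lay away from gene starts. Introns held 558 of the 893 (62.5%), intergenic DNA 285, 3′ UTRs 23, coding exons 20 and 5′ UTRs 7, by the GENCODE annotation. The median distance to a protein-coding gene start was 16634 bp, and 88 elements were within 1 kb of one. Among regions of 1 to 5 kb, 22.5% of 405 element regions and 19.3% of 43256 regions reached within 1 kb of a gene start. In the same width class, the AP-1 site (TGACTCA or TGAGTCA, either strand), read by Fos and Jun proteins, occurred within 100 bp of the summit in 9.63% and 9.46%. The cAMP response element TGACGTCA, read by CREB, was present in 7 element regions (1.73%) against 0.858% of all regions of that width. An element lay within 100 bp of its region's highest summit in 114 cases (12.8%), and a peak covered it in at least 2 libraries in 732 cases and in all 17 in 86.

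Libraries held from 74532 to 155025 autosomal peaks, the fewest in male cocaine. Read totals were not used here, so a missing call means not called at that library's depth. Peaks stood at the gene starts of neuronal markers Rbfox3, Snap25, Syt1 and Map2 and of Drd1, Drd2, Ppp1r1b, Penk and Gad2 in all 17 libraries, while Gad1 had none at its outermost annotated start. Of markers of other cells, Cx3cr1, Aif1, Csf1r, Cldn5, Pecam1, Aqp4 and Slc1a3 had no peak in any library, Mog had one in 1 library, Gfap in 16 and Mbp in 17. The label of diestrus cocaine library 2 gave no stage, and its group came from its title. Diestrus cocaine library 1 stood apart from its group. It shared 68.6% to 74.0% of called regions with the diestrus controls, against 66.0% and 58.4% with diestrus cocaine libraries 2 and 3, so diestrus results are also given without it.

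Element regions were called more often than all regions in every library. In diestrus controls 85.0% ± 3.6 (SD, n = 3) of the 874 were called, and after cocaine 77.4% ± 9.3 (n = 3). The proestrus values were 80.6% ± 2.1 (n = 3) and 78.3% ± 0.90 (n = 3), and the male values 80.7% ± 2.0 (n = 3) and 67.4% ± 2.1 (n = 2). The 3 diestrus cocaine libraries spread from 69.5% to 87.6% and overlapped their controls, which ran from 80.8% to 87.3%. Male groups did not overlap, but male cocaine libraries also called fewer of all regions, 39.3% against 68.2%. Of all regions, diestrus controls called 60.5% and diestrus cocaine libraries 54.6%, and the proestrus means were 53.1% in controls and 56.7% after cocaine. The share of elements that lay directly under a peak was 46.6% ± 6.8 in diestrus controls and 45.7% ± 6.1 in proestrus controls, a difference within the spread of 3 libraries each. It was 39.4% and 37.8% after cocaine, and in males 39.8% in controls and 19.2% after cocaine.

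**Figure D2:**
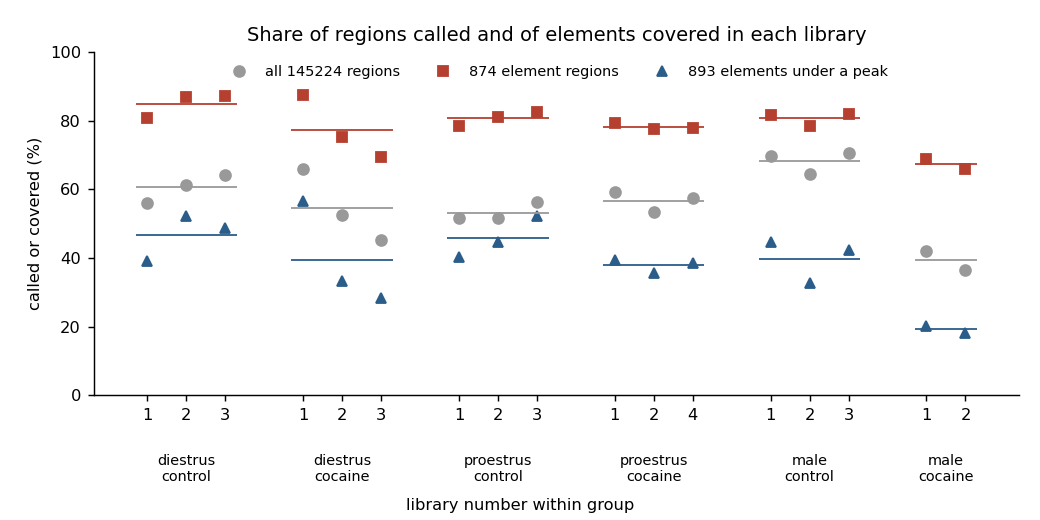
Percent of all 145224 regions called (grey circles), of the 874 element regions called (red squares) and of the 893 elements lying under a peak (blue triangles) in each of the 17 libraries, with horizontal lines at the group means. Element regions sit between 65.9% and 87.6%, above all regions in every library, and the 2 male cocaine libraries are lowest for all 3 measures.

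The exact elements showed the whole range of openness. Regions of 14 of the 29 were called in all 17 libraries, and 4 elements were covered by a peak in all 17. Values below are the fold enrichment of the strongest peak in the region, the ratio of its summit to the background of the same library, with 0 for no peak.

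Zbtb37, a zinc finger gene, had the most open of these regions, 5005 bp from its start. Its fold enrichment was 29.4, 31.4 and 33.1 in diestrus controls and 39.9, 44.4 and 34.2 after cocaine, 26.3, 31.1 and 31 in proestrus controls and 33.7, 42.5 and 32.3 after cocaine, and 41.3, 41.5 and 38.3 in male controls and 33.2 and 29.1 after cocaine. Cocaine libraries lay above controls in both female stages and below them in males. After each library was centred on its median, the log2 differences were 0.32 ± 0.14, 0.18 ± 0.14 and 0.11 ± 0.15, and none passed the test (adjusted p = 0.119, 0.452 and 0.685, limma). The sign in males depended on scaling, with -0.05 under quantile normalization. The Tmem246 element, in an intron 887 bp from the gene start, was covered in all 17 libraries at 9.08 to 15.1, and the one in an intron of Clvs2, a lipid-binding protein of neurons, at 4.22 to 9.63. Neither region passed a test of cocaine after centring, with an adjusted p of 0.119 to 0.405 for Tmem246 and 0.0942 to 0.957 for Clvs2 (limma). The Clvs2 element was 78 bp from the summit, the Tmem246 element 704 bp.

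Near Evl, an actin regulator, and Nudcd3, a chaperone cofactor, regions with exact elements were lower after cocaine in diestrus and in proestrus, respectively. Evl had 11.5, 13.1 and 9.03 in diestrus controls and 12.2, 5.66 and 4.82 after cocaine, a log2 difference of -0.68 ± 0.19 (SE) with an adjusted p of 0.0188 (limma, Benjamini-Hochberg). Diestrus cocaine library 1 sat among the controls, while libraries 2 and 3 fell below them. Nudcd3 had 16.3, 19.3 and 15.8 in proestrus controls and 13.7, 11.9 and 12.8 after cocaine, a log2 difference of -0.52 ± 0.14 (adjusted p = 0.0309, limma). The proestrus groups of Nudcd3 did not overlap. Pgbd5, also with an exact element, was lower in diestrus, with a log2 difference of -0.46 (adjusted p = 0.0469, limma). It had 13.2, 14.7 and 16.4 in diestrus controls and 14.7, 11.2 and 7.58 after cocaine, and passed in 9 of 24 alternative fits. At the exact element of Srxn1 the cocaine effect was higher in males than in diestrus (0.69, adjusted p = 0.0329, limma), passing in 12 of 24. Of 24 alternative fits, Evl passed in 19 and Nudcd3 in 18, and Evl was lost without diestrus control library 1 or 2 or cocaine library 2 or 3, and Nudcd3 without any one proestrus library other than cocaine library 2.

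Several exact elements sat in narrow peaks that few libraries called. In an intron of Col19a1, 11 bp from the summit, the peak was called in 8 libraries and covered the element in each. They were diestrus controls 1 and 3 (3.49 and 3.01), proestrus control 3 (2.94), proestrus cocaine 1 and 4 (3.00 and 2.62) and all male controls (3.70, 3.86 and 3.51). The Syn3 element, 14 bp from the summit in an intron of a synapsin gene, was open in the 3 diestrus controls (4.78, 4.02 and 3.63) and in diestrus cocaine library 1 (3.56), and in no other library. Slc7a11, the cystine-glutamate exchanger gene, was 308508 bp from an element open in all proestrus controls (8.02, 4.64 and 3.89), in no diestrus library, and at 2.62 and 3.18 in proestrus cocaine library 4 and male control library 3. The Trpc6 element was open in the 3 male controls alone (3.95, 4.68 and 3.51), and in no female library. In these regions a missing call does not show that the DNA was closed.

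**Figure D3:**
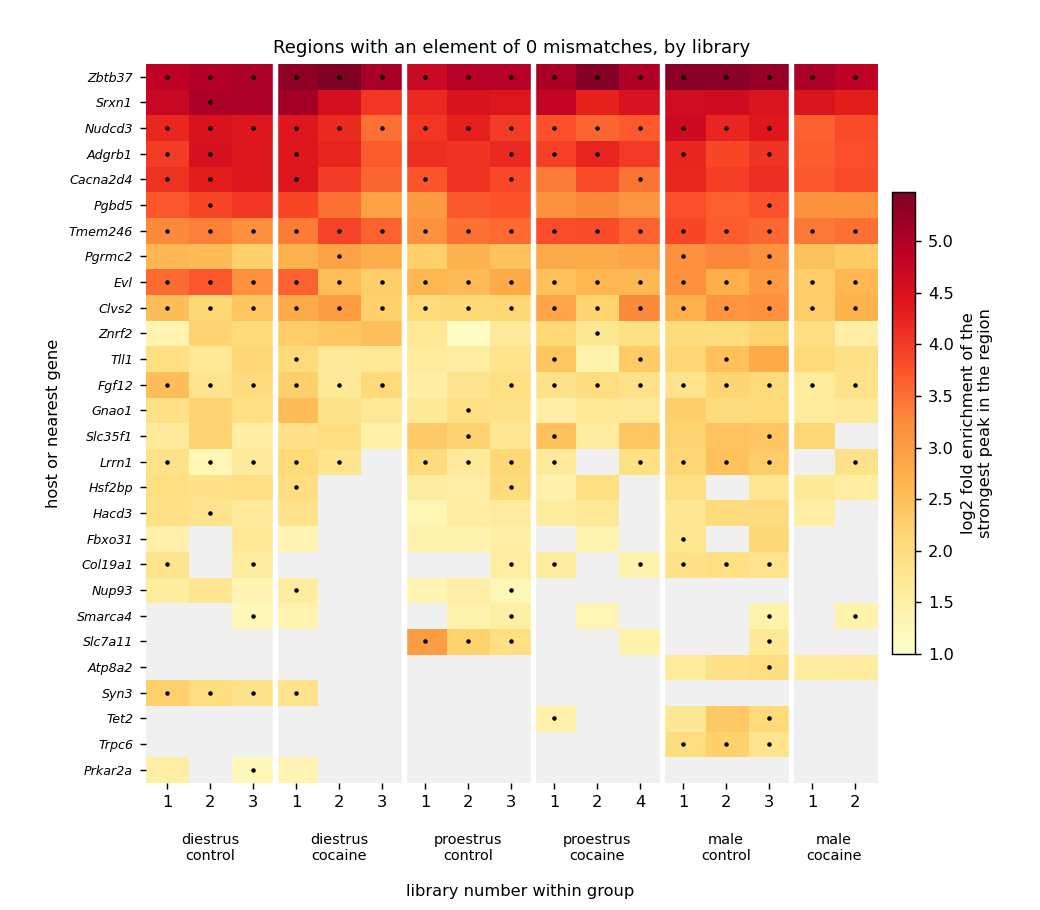
A total of 28 regions with an exact element (rows, by host or nearest gene) in the 17 libraries (columns, by group and library number), coloured by log2 fold enrichment of the strongest peak, with grey for no peak and a black dot where a peak covers the element itself. The top 14 rows are called in all 17 libraries, while Syn3, Slc7a11 and Trpc6 are called mainly in diestrus controls, proestrus controls and male controls.

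Genes of estrogen signalling and of striatal neurons were looked up in 3 lists, each gene counted when an element region lay within it or nearest to it at up to 100 kb. In the list of nuclear receptors and their coregulators, Nrip1 and Sp1 had one. Of 46 autosomal genes known to respond to estrogen, 6 had one (13%), Cited2, Ebag9, Hspb1, Nrip1, Pgr and Sgk1. Of 25 striatal genes, 6 had one (24%), Bcl11b, Fosb, Foxp1, Gad2, Gria1 and Pde10a. Among all 20780 autosomal protein-coding genes the share was 4.24% (882), and longer and more open genes have more room for an element. Neither Esr1 nor Esr2, the receptor genes, had one by this rule.

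Among estrogen-responsive genes, Pgr encodes the progesterone receptor. Its element lay in an intron 19 bp from the summit, and its region was called in all 17 libraries, with a peak over the element in 16. Fold enrichment was 4.26, 4.24 and 4.36 in diestrus controls and 5.38, 5.45 and 4.27 in proestrus controls, with 7.39, 6.89 and 6.92 in male controls and 3.94 and 4.42 in male cocaine libraries. The female control groups overlapped and the male groups did not, but no comparison of this region passed the test after centring (adjusted p = 0.349 for cocaine in males, limma).

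Nrip1 encodes a corepressor that binds liganded estrogen receptors and is itself induced by estrogen. Its element was 135 bp from the gene start. Fold enrichment was 8.91, 11.4 and 8.82 in diestrus controls and 14.1, 18 and 13.6 after cocaine, a log2 difference of 0.64 ± 0.15 (adjusted p = 0.00888, limma). All 3 cocaine libraries, library 1 included, were above the 3 controls, and the difference passed in 20 of 24 alternative fits, failing among single libraries without diestrus control 3 or cocaine 2 or 3. In proestrus the groups overlapped, with 9.19, 10.6 and 13.1 in controls and 12.8, 13 and 10.7 after cocaine.

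Cited2, a coactivator partner of CBP and p300, had an element 2533 bp from its start. The region had 14.7, 17.8 and 15.7 in diestrus controls and 18.2, 32.6 and 22.1 after cocaine, a log2 difference of 0.55 ± 0.18 (adjusted p = 0.0418, limma). The diestrus groups did not overlap, but the difference passed in 13 of 24 alternative fits, and it was lost without diestrus control library 1, 2 or 3, without diestrus cocaine library 2 or 3, and without proestrus control library 3, male control library 3 or either male cocaine library.

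Ebag9, a gene named for its estrogen response, carried the element in its 5′ UTR 12 bp from the start. A peak covered it in all 17 libraries at 32.5 to 55.5, and no comparison passed the test, although with quantile normalization the region was higher after cocaine in diestrus (0.29, adjusted p = 0.0373, limma). Sgk1, the serum- and glucocorticoid-regulated kinase, had 2 elements in one intronic region, 326 and 42 bp from its summit. That region was called in 9 libraries, among them all 3 diestrus controls (3.61, 2.57 and 2.59), and in neither male cocaine library. The Hspb1 element lay in an intron of the neighbouring gene Srrm3, in a region called in all 17 libraries at 2.41 to 5.58.

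In the coregulator list, Sp1, a transcription factor that tethers estrogen receptors to GC-rich promoters, had an element in a coding exon, in a region called in all 17 libraries at 42.6 to 82.3, where a peak covered it in 4.

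In striatal genes, Gad2, the GABA-synthesizing enzyme, had 3 elements. The one shown above was 229 bp from the start and covered by a peak in all 17 libraries, and the covering peak had 6.71 to 13.8. The others were intronic, 61653 bp from the start in a region called in 17 libraries and covered in 14, and 34556 bp from the start in a region called in 4. Bcl11b, a transcription factor of medium spiny neurons, had one in an intron, 369 bp from the summit and also covered in all 17, in a region 41658 bp wide. Pde10a had 2 intronic elements and Foxp1 one in its 3′ UTR, in regions called in all 17 libraries. Fosb, an AP-1 subunit induced by cocaine, had a repeat-derived element 1621 bp from its start that a peak covered in 1 library. Gria1, an AMPA receptor subunit, had one in a region called in 6 libraries. Over the 3 lists, 13 regions were called in all libraries, of which 2 were higher after cocaine in diestrus (Nrip1 and Cited2), and no region passed the test for cocaine in proestrus or males. With the GC trend removed, the regions of Gad2 at 229 and 61653 bp (0.46 and 0.65) and one of Pde10a (0.44) were higher after cocaine in males (adjusted p = 0.0455, 0.0219 and 0.046, limma).

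The cocaine effect was also compared between sexes in these regions, each effect on the centred log2 scale. It was higher in males than in diestrus at Bcl11b (0.69), Fosb (0.69) and Pde10a (0.70), with adjusted p of 0.0372, 0.0436 and 0.0284 (limma). It was higher in males than in proestrus at Fosb (0.69), Pde10a (0.70) and the Srrm3 intron next to Hspb1 (0.83), with adjusted p of 0.0457, 0.0302 and 0.0476 (limma). Of 24 alternative fits, Pde10a passed in 19 against diestrus and 16 against proestrus, Bcl11b in 12, Fosb in 8 and 7, and Srrm3 in 9, and each was lost without either male cocaine library and without some of the other libraries compared.

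Gain and loss of whole peaks were then counted, a region being gained when every cocaine library and no control library called it, and lost in the converse case. With 3 libraries against 3, or 2 against 3, no region can reach p below 0.1, so these are counts with no test. In diestrus 5 of the 874 element regions were gained and 8 lost, where 1.12% and 1.28% of all regions were. In proestrus 7 were gained and 16 lost, against 2.42% and 1.65% of all regions. In males 2 were gained and 54 lost, against 1.68% and 16.7%. As shares of 874 the diestrus counts were 0.572% and 0.915%, the proestrus counts 0.801% and 1.83%, and the male counts 0.229% and 6.18%. The share lost in proestrus was near that of all regions, and the others were below it. A region called in all 17 libraries can be neither gained nor lost, and these were 57.6% of element regions against 24.9% of all regions. In regions of at most 5 kb, chosen after seeing the data, 2.48% of 644 element regions were lost in proestrus, against 1.7% of all. Losses there in diestrus were 1.24% against 1.32%, and the other shares stayed below those of all regions.

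The diestrus counts turned on single libraries. Without diestrus cocaine library 1, 10 element regions were gained (1.14%) and 62 lost (7.09%), against 2.48% and 7.33% of all regions. Losses numbered 24, 15 and 15 without diestrus control library 1, 2 or 3, or 2.75%, 1.72% and 1.72% against 3.33%, 2.83% and 2.25% of all regions. Gains were 8 and 9 without control library 2 or 3 (0.915% and 1.03%, against 1.62% and 1.95%). Counts rise in part because fewer libraries have to agree. In proestrus, gains were 11 to 19 with any 1 library left out (1.26% to 2.17%, against 3.09% to 6.25% of all regions). Losses there were 29 without control library 1 (3.32% against 3.73%) and 26 without cocaine library 2 (2.97% against 2.49%). In males, losses were 91 without cocaine library 1 (10.4% against 22.2%), and gains were 4 without control library 2 and 6 without cocaine library 2 (0.458% and 0.686%, against 1.99% and 2.61%).

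Losses in diestrus included narrow intronic peaks. At Isx the 3 controls had 5.29, 2.46 and 4.05 and male control library 2 had 3.31, with no other call. At Tcf4, a neuronal transcription factor, controls alone had a peak (3.74, 2.57 and 3.11). Gains included Cntnap5a, a neurexin-family adhesion gene, with 2.49, 2.52 and 3.10 after cocaine and none in diestrus controls, and the element 84 bp from its summit.

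In proestrus the lost regions included an element at Sash1, with 5.38, 4.06 and 4.17 in controls and no peak after cocaine, and Evpl, with 2.75, 3.6 and 3.6. The Nup93 region, with an exact element, had 2.53, 2.78 and 2.46 in controls and no call after cocaine. Of the 16 lost in proestrus, 5, 12 and 13 were called in diestrus controls 1, 2 and 3, and 6, 1 and 6 in male controls 1, 2 and 3. Among all 2399 regions lost in proestrus, the diestrus controls called 33.0%, 59.4% and 54.1% and the male controls 45.4%, 20.3% and 40.6%. Gains included Nmbr, a neuropeptide receptor gene 682842 bp away, at 3.10, 2.67 and 3.14 after cocaine. That region was also called in all diestrus libraries, so it was missing among females in the proestrus controls alone.

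In males, 7 of the 54 lost regions (13%) were called in no female library, against 28.2% of all 24324 lost regions. Among the 7 were elements in introns of Fbxl13 (5.99, 5.65 and 6.48 in male controls) and Slco2b1 (9.56, 6.06 and 7.90). The 2 male cocaine libraries had no peak in either. The other 47 were shared with females in part, since each female library called 17 to 37 of the 54 (31.5% to 68.5%), and 21.4% to 44.3% of all regions lost in males. The Mical3 region had 6.88, 6.20 and 6.04 in male controls, none in male cocaine libraries, and 2.64 to 3.51 in all 12 female libraries. Its element is in a repeat. When each library was cut to its 74532 strongest peaks, to match the smallest library, 26 element regions were lost (3.66% of 711 kept) and 14 gained (1.97%) in males, against 9.54% and 4.15% of all 90665 regions kept.

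Between stages, 29 element regions (3.32%) were called in all diestrus controls and no proestrus control, and 5 (0.572%) in the converse pattern. Over all regions the shares were 4% and 0.788%. Regions called in all 17 libraries can show neither pattern, and these were 57.6% of element regions against 24.9% of all. In regions of at most 5 kb, chosen after seeing the data, 4.5% of 644 element regions had the diestrus pattern, against 4.12% of all. The converse pattern had 0.776% there, against 0.812%. After cocaine the counts were 0 and 2, against 0.243% and 0.519% of all regions. Diestrus cocaine library 1 called 26 of the 29, whereas libraries 2 and 3 called 5 and 2. The same held over all 5803 regions of that pattern, of which library 1 called 80.3% and libraries 2 and 3 called 17.5% and 13%. Without library 1, 11 element regions (1.26%) were called in proestrus and not in diestrus after cocaine, against 1.8% of all regions. Leaving out single libraries gave 31 to 47 for the 29 (3.55% to 5.38%, against 4.72% to 6.76% of all regions), with 47 without diestrus control library 1, and 6 to 13 for the 5 (0.686% to 1.49%, against 1.01% to 2.08%). Without diestrus control 2 or 3 or proestrus control 1, 2 or 3 the latter count was 9, 10, 13, 10 and 9, in that order.

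Of the 29, 11 had their element within 100 bp of the summit. They were 9.65% of the 114 element regions of that kind, against 4% of all regions. Of those 114 regions, 18 were called in all 17 libraries. At Dab2ip, a Ras GTPase-activating protein gene, the element was 50 bp from the summit. The diestrus controls had 6.71, 6.03 and 5.92, diestrus cocaine library 1 had 8.07 and male control library 1 had 3.82, with no other call. At Atp2b1, a plasma membrane calcium pump gene 422287 bp away, diestrus controls had 5.29, 4.02 and 4.25 and 6 other libraries were between 2.77 and 4.63. At Tns3 the controls had 5.94, 5.81 and 4.88. In the converse set, besides Slc7a11, an element 72 bp from the summit in an intron of Vash1 had 2.53, 2.90 and 3.13 in proestrus controls and 3.82, 3.31 and 3.40 in male controls, with no call in any diestrus library.

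**Figure D4:**
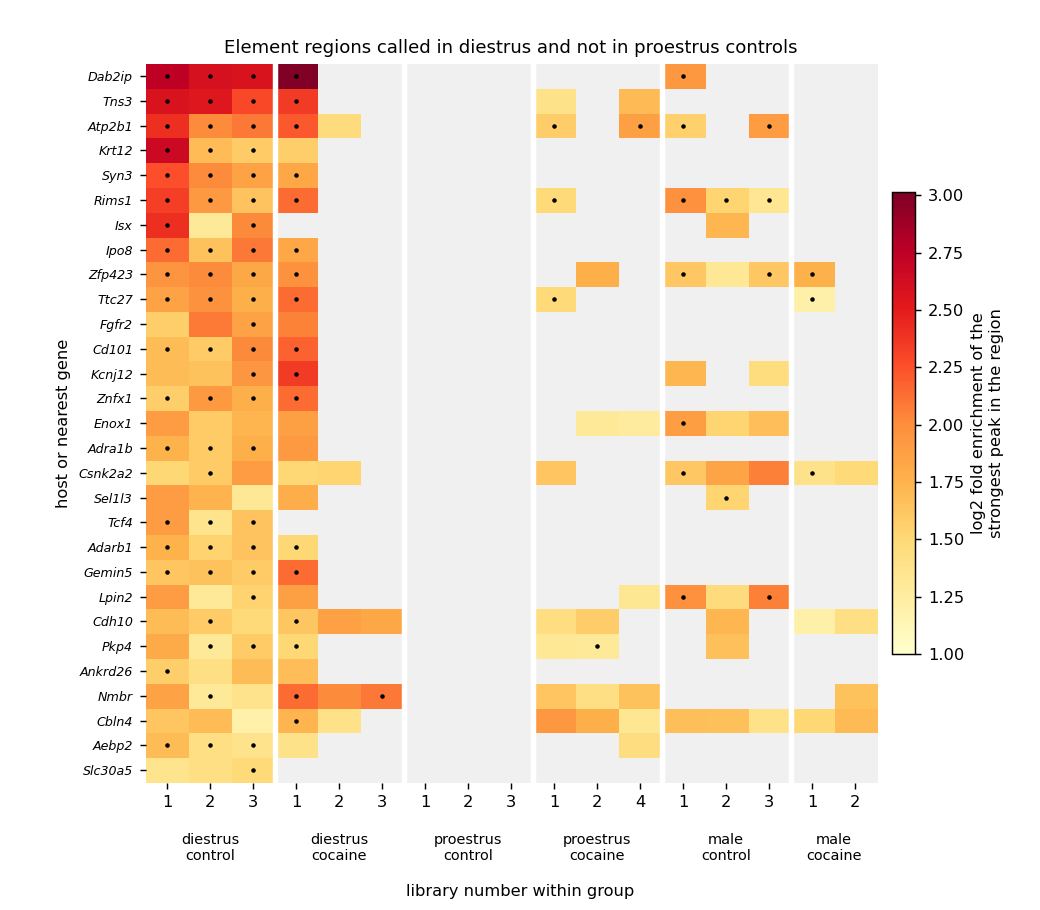
The 29 element regions called in all diestrus controls and in no proestrus control (rows, by host or nearest gene) in the 17 libraries (columns), coloured by log2 fold enrichment of the strongest peak, with grey for no peak and a black dot where a peak covers the element. Diestrus cocaine library 1 is called in 26 of the 29 rows, like the controls, and libraries 2 and 3 in 5 and 2.

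Fisher's exact test over all libraries compared how often each region was called in the 8 cocaine and 9 control libraries. Of 63463 regions called in 4 to 13 libraries, 232 were element regions, and none passed an adjusted p of 0.05, as 0% of all regions did. At an unadjusted p under 0.05, 6 element regions were called more often after cocaine (3.73% of all tested regions) and 27 less often (9.31%), which is 2.59% and 11.6% of 232. Between the 6 diestrus and 6 proestrus libraries, 224 element regions were tested of 59532. None passed the adjusted test (0% of all), and none had an unadjusted p under 0.05, where 0.168% of all regions were called more often in proestrus and 0.296% less often. The smallest p of an element region was 0.0606 (exact test).

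Levels were compared in the 36170 regions called in all 17 libraries, of which 503 were element regions. The log2 fold enrichment of each library was centred on its median, and all 6 groups were fitted together with limma. Calls were made at a Benjamini-Hochberg adjusted p of 0.05 over all 36170. Where a single library was left out, the counts given are of element regions alone. Whether those changes in count were particular to element regions was not tested.

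In diestrus, element regions fell more often than they rose. After cocaine 21 of 503 were higher and 40 lower, where 6.38% of all regions were higher and 4.77% lower, and the members' shares were 4.17% and 7.95%. The median log2 difference was -0.047 in element regions and 0.017 in all. In regions wider than 2 kb, 4.49% of 401 element regions were higher and 8.48% lower, against 7.31% and 4.99% of all 15751. Where a peak covered the element in all 17 libraries, 6 of 85 were higher and 6 lower, so the direction was not seen in that subset. The total of 61 changed with single libraries, to 146 without diestrus cocaine library 1 (59 higher and 87 lower), 7 and 4 without cocaine library 2 or 3, 29 and 16 without control library 2 or 3, and 96 without proestrus cocaine library 2.

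The 6 regions that fell most in diestrus were those of Grm4, Bsn, Rbfox3, Shank1, Msra and Anks1. Grm4 encodes a metabotropic glutamate receptor, and its element, 117160 bp from the start, was covered in all 17 libraries. Fold enrichment was 9.94, 14.2 and 13.4 in controls and 10.3, 6.54 and 4.36 after cocaine, a log2 difference of -0.90 ± 0.17 (adjusted p = 0.0027, limma). Library 1 lay within the control range and libraries 2 and 3 below it.

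Shank1, a scaffold of the postsynaptic density, had a log2 difference of -0.82 ± 0.17, from 41.6, 61.5 and 56.5 to 48.2, 30.3 and 18.5 (adjusted p = 0.00449, limma). Bsn, the presynaptic protein bassoon, had -0.88 ± 0.23, from 9.68, 8.49 and 7.68 to 10.7, 3.65 and 2.64 (adjusted p = 0.0153, limma). Rbfox3, which encodes NeuN, the antigen of the sort, had -0.85 ± 0.18 at an intronic element, from 8.26, 9.71 and 11.1 to 7.36, 4.40 and 4.82 (adjusted p = 0.00449, limma). In 2 of the 3, Shank1 and Bsn, library 1 again lay within or above the controls. Msra and Anks1 had -0.82 and -0.80 (adjusted p = 0.00698 and 0.00887, limma). Of 24 alternative fits, Grm4 passed in all, Shank1 and Rbfox3 in 23, Msra and Anks1 in 22 and Bsn in 20.

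In proestrus 12 element regions changed, 1 higher and 11 lower, against 1.59% and 1.95% of all regions, or 0.199% and 2.19% of the 503. The medians were -0.108 in element regions and -0.021 in all. Wider than 2 kb, 0 of 401 were higher and 11 (2.74%) lower, against 0.425% and 2.02% of all. Up to 2 kb, 1 of 102 was higher (0.98%) and 0 lower, against 2.49% and 1.9% of all. Where a peak covered the element in all 17 libraries, 1 of 85 was higher and 2 lower. The fall was thus counted in wide regions, where the strongest peak need not lie at the element. The region that rose was 484996 bp from Hsf2, a heat shock factor gene, and a peak covered its element in all 17 libraries. It had 2.85, 2.44 and 3.32 in controls and 5.21, 4.81 and 5.13 after cocaine, a log2 difference of 0.72 ± 0.18 (adjusted p = 0.0225, limma), and the groups did not overlap.

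Those that fell most were 4930535I16Rik (-0.85), Sympk (-0.81), Myo18a (-0.67), Atp2b2 (-0.64), a neuronal calcium pump, and Tmem200b (-0.64), with adjusted p from 0.0152 to 0.0234 (limma). Myo18a had 25, 24.7 and 26.3 in controls and 18.7, 15.1 and 17.8 after cocaine. At Atp2b2 the values were 14.4, 14.7 and 17.8, and then 10.7, 11.4 and 10.2. Neither pair overlapped. Of 24 alternative fits, 4930535I16Rik passed in 22, Sympk in 19, Hsf2, Myo18a and Atp2b2 in 18 and Tmem200b in 17. With the GC trend removed Tmem200b had -0.47 (adjusted p = 0.0782, limma). The total of 12 became 61 without proestrus cocaine library 2, 26 and 21 without diestrus cocaine library 1 or 3, and 0 to 2 without any one of the other proestrus libraries, that is proestrus control 1, 2 or 3 or cocaine 1 or 4.

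In males the direction, after each library was centred on its median, was the opposite. After cocaine 31 element regions were higher and 7 lower, against 5.78% and 4.08% of all regions, or 6.16% and 1.39% of the 503. The medians were 0.155 and 0.092. In regions wider than 2 kb, 5.99% of element regions were higher and 1.25% lower, and 5.5% and 2.84% of all. The male balance depended on scaling. At Zbtb37 the uncentred male values fell after cocaine, while the centred log2 difference was 0.11. With quantile normalization, 19 element regions were higher and 9 lower, while over all regions 1274 were higher and 1853 lower. The total of 38 became 6 without either cocaine library, 15 and 17 without control library 2 or 3, and 70 without proestrus cocaine library 2.

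The region 6919 bp from Shisa4 changed most in males. It had 10.1, 11.4 and 12 in male controls, 3.39 and 2.79 after cocaine, and 3.21 to 4.43 in all 12 female libraries, a log2 difference of -1.37 ± 0.18 in males (adjusted p = 8.3e-06, limma). Its element is in a repeat, 1218 bp from the summit, and a peak covered it in 2 libraries. Male controls were the high group, and male cocaine libraries lay within or below the female range.

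Ptpn5, the striatal-enriched tyrosine phosphatase, had 6.76, 6.20 and 6.81 in male controls and 10.1 and 8.25 after cocaine, a log2 difference of 0.95 ± 0.19 (adjusted p = 0.00102, limma). Rap1gap, a regulator of Rap1 signalling in medium spiny neurons, had 18.7, 12.3 and 13.2 and then 18.6 and 19.4 in a region 47255 bp wide (0.88 ± 0.18 after centring, adjusted p = 0.00168, limma). For Rap1gap the uncentred groups overlapped. Birc6 had 0.90 ± 0.20 (adjusted p = 0.00301, limma). Regions near Olfr161 and Vmn1r238 had 1.07 and 1.09 (adjusted p = 0.00442 and 2.43e-05, limma), with elements 93.3% masked as repeats.

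**Figure D5:**
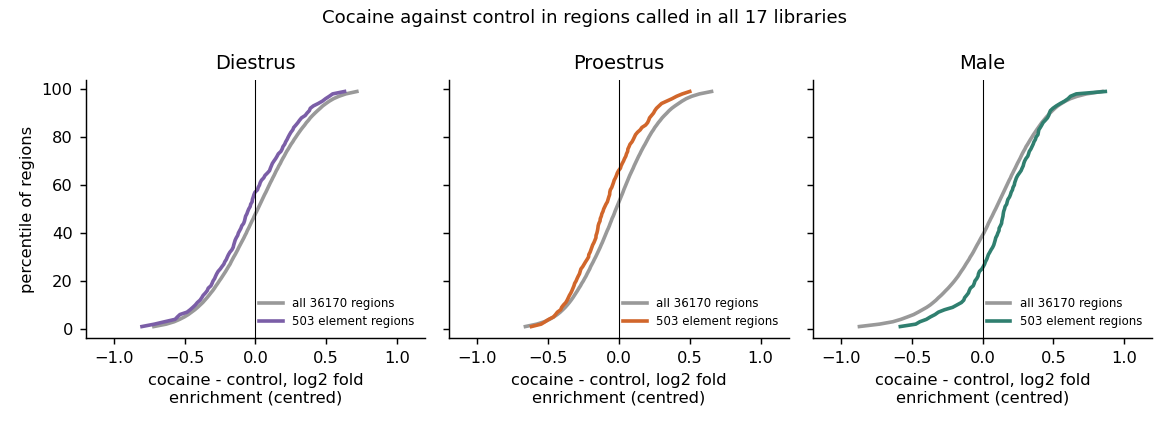
Percentiles (vertical axis) of the log2 difference in fold enrichment between cocaine and control (horizontal axis, each library centred on its median) for all 36170 regions called in 17 libraries (grey) and the 503 element regions among them (coloured), in diestrus, proestrus and males. The coloured curve lies left of grey at its middle in both female stages, with medians of -0.047 and -0.108, and right of it in males, with 0.155.

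Between stages, 1 element region passed the test in controls, 0 higher and 1 lower in proestrus, against 0.102% and 0.196% of all regions. It lay in an intron of Cacna1c, the L-type calcium channel gene, with the element 86 bp from the summit and covered in all 17 libraries. Diestrus controls had 8.39, 7.48 and 7.68 and proestrus controls 3.70, 3.95 and 4.27, a log2 difference of -0.77 ± 0.16 (adjusted p = 0.0297, limma), with no overlap. After cocaine the ranges were 5.28 to 7 in diestrus and 4.28 to 6.01 in proestrus. The call was lost without any 1 of the diestrus or proestrus controls, and without diestrus cocaine library 1 or proestrus cocaine library 2 the count was 9. After cocaine, 0 element regions passed in either direction, as 0% of all regions did.

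The cocaine effect itself was compared between groups. Between proestrus and diestrus 0 element regions differed in either direction, where 0.00553% of all regions were higher and 0% lower. Between males and diestrus 70 differed, 65 with a higher effect in males and 5 lower, against 7.82% and 4.88% of all regions, or 12.9% and 0.994% of the 503. Between males and proestrus 67 differed, 62 higher and 5 lower, against 7.4% and 3.75%, or 12.3% and 0.994%. With quantile normalization the splits were 62 higher and 22 lower, and 47 and 10. With the GC trend removed as well, they were 45 and 26, and 17 and 10. These 2 contrasts share the male libraries and are not independent of each other or of the within-sex tests. With single libraries left out they ran from 17 to 148 and from 12 to 146, lowest without either male cocaine library.

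Sex differences in the cocaine effect were seen at Rela, which encodes the p65 subunit of NF-kappa B. The region 11043 bp from its start had 10.2, 12.8 and 12.8 in diestrus controls and 9.38, 8.80 and 4.02 after cocaine, and 10.7, 7.99 and 8.67 in male controls and 10.8 and 9.53 after cocaine. These uncentred male groups overlapped. The centred log2 effect was -0.79 in diestrus and 0.65 in males. The difference of 1.44 ± 0.25 had an adjusted p of 0.000466 (limma). Myo18a had the same signs, with a difference of 1.31 ± 0.25 from diestrus and 1.42 ± 0.25 from proestrus (adjusted p = 0.00128 and 0.000616, limma). For Grm4 the difference of males from diestrus was 1.31 ± 0.26 (adjusted p = 0.00187, limma).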

How the data were processed

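Chromatin accessibility had been measured by ATAC-seq in 17 libraries of NeuN+ nuclei, in 6 groups taken from the sample titles. The authors trimmed adapters, mapped reads to mm10 with BWA-MEM, and ran MACS2 on each library by itself to call peaks. Versions and options are not given in the sources used here. The deposited peaks have a score (not used), a fold enrichment (a ratio of the summit to background, used here), −log10 p and −log10 q values (the authors' significance values, used as a filter), and the summit's offset. The authors tested read counts with DESeq2, which was not run here because no counts were used.

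Peaks on chromosomes 1 to 19 were merged where they overlapped, and regions called in at least 2 libraries of a group were kept. No blacklist was used. Sequence came from GRCm38.p6, the build of the files, and genes from GENCODE vM21. Elements were searched in Python 3.11.15 with NumPy 2.4.6 and pandas 2.3.3, allowing 1 mismatch in 12 bases. An element counted as covered when a peak contained all 15 bases, and as in a repeat when over 50% of it was soft-masked. Distances are to protein-coding gene starts.

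Calls were compared by counts per group and by two-sided Fisher's exact tests (SciPy 1.17.1) in regions called in 4 to 13 of 17 libraries, or 3 to 9 of 12 female libraries. Levels were log2 fold enrichment of the strongest peak, with no pseudocount, in regions called in all 17 libraries, centred per library and fitted with limma 3.58.1 (R 4.3.3). Adjusted p-values are Benjamini-Hochberg over all regions tested, at 0.05. In simulated calls, changed regions were set as called in every cocaine library and in no control library, the largest possible difference. This meets the rule for gained regions by construction. The 200 of 200 recovered by the Fisher test and by that rule in diestrus therefore do not show power for smaller differences. The Fisher test called 0 others, and the rule called 511 others of 145224. On simulated levels in the diestrus comparison, limma recovered 16 of 100 at a log2 change of 0.5 and 96 of 100 at 1. It called 9 others of 36170.

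Named regions had an exact element (up to 20, by libraries called), separated groups (up to 5 per comparison and direction), passed limma (up to 6 per comparison by size), lay at a list gene, or were within 1 kb of a gene start (up to 8). Regions added afterwards are Trpc6, Nup93 and the other exact elements beyond 20. The members and lists were chosen with earlier results of these data known. Alternatives covered peak strength, peak number, the mismatch limit, distance to the summit, region width, normalization and single libraries. Those chosen after seeing the data were calls by a covering peak, regions of at most 5 kb, and quantile normalization with GC correction, as were the subsets of limma calls by width and coverage. A result for 1 item is not reported here.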

Additional observations from a re-analysis of the deposited data

Results flagged for a closer look

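All flags mark cocaine effects that differed between males and females in the test of the difference itself (limma, adjusted p under 0.05 over 36170 regions). The effect in males minus that in diestrus differed in 70 of 503 element regions, and the effect in males minus that in proestrus in 67. The male effect was lower than the diestrus effect at Shisa4, by a log2 difference of -1.41. It was higher at Rap1gap (1.30), Myo18a (1.31), Olfr161 (1.83), Grm4 (1.31) and Rela (1.44). Against proestrus, the male effect was higher at Rap1gap (1.17), Ptpn5 (1.41), the neighbours Fam57a and Glod4 (1.19), Myo18a (1.42), Olfr161 (1.48) and Vmn1r238 (1.55). Differences at Shisa4, Grm4, Rela, Ptpn5, Rap1gap, Myo18a and Vmn1r238 passed in all 24 alternatives, while those of Olfr161 and of Fam57a and Glod4 against proestrus were lost in 1. The male arm has 2 cocaine libraries, and these had the fewest peaks of the 17. The part of library depth in these differences was not tested. No group was tested for single outlying libraries, since all have 2 or 3.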

How the results depend on the processing

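Of 378 alternative values of the main results, 231 stayed within 1.5 times the count or 1 SD of the share, and no difference of a named region past the threshold changed sign. Below the threshold, signs turned with quantile normalization at Zbtb37 (0.11 to -0.05) and Nrip1 (0.07 to -0.03) in males. With 1 library left out, 143 of 223 did. The study gives read numbers for its ATAC-seq libraries, but they were not used here. A missing call is therefore the main limit on counts of gained and lost regions. Groups of 2 or 3 libraries are the limit on levels. The cause of the shifts below was not tested, except that subsets hold fewer regions.

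With a −log10 q of at least 5, 3 of 724 element regions were gained and 3 lost in diestrus (0.414% each, against 1.19% and 1.01% of all regions). In proestrus 9 were lost (1.24% against 1.0%). After cocaine 0 were specific to proestrus and 1 to diestrus (0% and 0.138%, against 0.378% and 0.225%). Shares called became 80.2% in proestrus cocaine, 86.9% in male control and 71.3% in male cocaine. With the 74532 strongest peaks of each library, 2 of 711 were lost in diestrus (0.281% against 1.19% of all regions). In proestrus 10 were lost (1.41% against 1.32%). In males 14 were gained (1.97% against 4.15%) and 26 lost (3.66% against 9.54%). Specific to diestrus were 14 in controls (1.97% against 3.19%) and 1 after cocaine (0.141% against 0.314%). The shares called were then 83.1% and 82.0% in proestrus control and cocaine, and 82.7% and 80.2% in male control and cocaine. With exact elements alone, gains were 0 of 29 in each group, against 1.12% (diestrus), 2.42% (proestrus) and 1.68% (males) of all regions. Losses were 0 in diestrus (1.28% of all), 1 in proestrus (3.45% against 1.65%) and 3 in males (10.3% against 16.7%). In controls 1 region was specific to each stage (3.45%, against 0.788% of all for proestrus and 4% for diestrus). After cocaine 0 were specific to proestrus (0.519% of all). The shares called were 79.3%, 62.1%, 78.2%, 66.7% and 62.1% for control and cocaine in diestrus, control and cocaine in proestrus, and male cocaine.

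With elements within 100 bp of the summit, gains and losses were 2 and 2 (diestrus), 0 and 3 (proestrus) and 1 and 6 (males). As shares of 114 these were 1.75% and 1.75%, 0% and 2.63%, and 0.877% and 5.26%. Over all regions they were 1.12% and 1.28%, 2.42% and 1.65%, and 1.68% and 16.7%. In controls 1 and 11 regions were specific to proestrus and diestrus (0.877% and 9.65%, against 0.788% and 4% of all). After cocaine 0 were specific to proestrus (0.519% of all). The shares called in the 6 groups, in the order diestrus, proestrus and male with control first, were 66.7%, 46.5%, 50.3%, 45.6%, 52.9% and 32.9%. With calls by a peak that covers the element, chosen after seeing the data, 3 of 585 were gained in diestrus and 5 in males. In controls 11 were specific to proestrus, and after cocaine 1 to each stage. This setting exists only for element regions, so no share of all regions stands beside it. The shares called were 46.9%, 39.7%, 45.8%, 38.1%, 40.0% and 19.5%.

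By limma, element regions that differed between stages in controls numbered 4 with quantile normalization, 5 with the GC trend removed, 6 with both and 20 in regions called in all libraries compared. With both corrections 27 differed between males and proestrus, 17 higher and 10 lower, where the main fit had 62 and 5. Between males and diestrus 71 differed, 45 higher and 26 lower, where the main fit had 65 and 5. After cocaine in males, 21 were then higher and 14 lower, where the main fit had 31 and 7. In diestrus 27 were higher and 49 lower, and in proestrus 4 and 7. In regions called in all libraries compared, 10 changed in diestrus (2 higher and 8 lower) and 145 in males (133 and 12). Counts over all regions are not given for these alternatives. Whether the shifts were particular to element regions was not tested. With the replicate number as a block, 2 element regions changed in proestrus and 26 differed between males and proestrus, and the other counts stayed within 1.5 times (62 in diestrus, 34 in males, 55 between males and diestrus). Correlations of deviations between libraries of the same number ran from -0.294 to 0.431. Pairs over 0.1 were 4 of 15, 3 of 15 and 0 of 6 for numbers 1, 2 and 3. Libraries with different numbers ran from -0.437 to 0.37, with 13 of 84 pairs over 0.1. The ranges overlap, and with 2 or 3 libraries per group they cannot decide whether the numbers mark a pairing.

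With single libraries left out, gains and losses ran from 7 to 10 and 8 to 62 (diestrus), 11 to 19 and 18 to 29 (proestrus), and 2 to 6 and 59 to 91 (males). Stage-specific counts ran from 6 to 13 (proestrus) and 31 to 47 (diestrus) in controls, and from 2 to 11 and 0 to 7 after cocaine. The adjusted Fisher counts stayed at 0. The limma ranges that follow are of element regions alone, and whether they were particular to element regions was not tested. By limma the ranges were 4 to 146 in diestrus, 0 to 61 in proestrus, 6 to 70 in males, 0 to 9 between stages in controls, 0 after cocaine, 0 to 1 between proestrus and diestrus effects, 17 to 148 between males and diestrus, and 12 to 146 between males and proestrus.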

Other observations

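Half-sites that face outward, another arrangement of the same letters, were counted in the same regions. With spacers of 0 to 6 bases and at most 1 mismatch they occurred in 368, 721, 629, 621, 592, 704 and 553 of the 145224 regions. Spacers of 1 and 5 bases were the most frequent. Outside repeats the spacer of 5 bases was still the most frequent, in 625 regions, while that of 1 base, in 535, fell below those of 4, 2 and 3 bases, in 566, 545 and 539.

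Element regions from repeats and others were called about equally often in all 17 libraries, 58.8% of 211 and 57.5% of 670. Of the repeat-derived regions, 124 entered the limma comparison, and after cocaine 2 were higher and 11 lower (diestrus), 0 and 2 (proestrus), or 11 and 2 (males). The 385 others had 19 and 29, 1 and 9, and 20 and 5. A region with both kinds of element is in both counts.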
